A study of Mus musculus with 20 samples.

Results

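miR-33, miR-103 and miR-107 are microRNAs (miRNAs) of lipid and insulin metabolism, and their levels were described here in the livers of PiZ and wild-type (WT) mice. Members were all rows of the deposited count files named for miR-33, miR-103 or miR-107, with any arm. There were 7, of 880 rows listed in every file: 2 of miR-33, 3 of miR-103 and 2 of miR-107, none of them inside a joined name. All 7 had reads in at least 1 mouse, and 5 of the 7 passed the filter on low counts and were tested.

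Liver small RNA libraries came from 5 PiZ and 5 WT mice, all C57BL/6 and 6 weeks old, and the 2 technical runs of each were summed here. By background knowledge, the PiZ genotype adds a human transgene coding for the Z form of alpha-1 antitrypsin, a liver-made protease inhibitor that in this form misfolds and builds up inside hepatocytes. What promoter drives it, the sex of the mice and any pooling of animals were not stated in the labels. Summed libraries held 1307857 to 10780801 reads, and values are CPM, counts per 1000000 reads after TMM scaling of the libraries. The files come in 2 feature lists, of 1399 rows (PiZ mice 1 and 2, WT mice 1 to 3) and 990 rows (PiZ mice 3 to 5, WT mice 4 and 5). Mice are numbered here for reference only; the libraries of WT mice 1 and 3 and of PiZ mouse 5 stood apart from their groups. The liver label was checked on miR-122-5p and miR-192-5p, hepatocyte miRNAs that summed to 113947 to 238057 CPM in PiZ and 55065 to 222763 CPM in WT libraries, highest in PiZ mouse 5 and lowest in WT mice 1 and 3. miR-122-5p alone did not follow that order, at 6807 to 11138 CPM in PiZ and 11669 to 14245 CPM in WT libraries.

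A miRNA guides the Argonaute silencing complex to messenger RNAs that pair with its seed, bases 2 to 8 from its 5′ end, and lowers their translation and stability. miR-33 is encoded within Srebf2, the gene of the sterol-sensing transcription factor SREBP-2, and is known to repress the cholesterol exporter Abca1. miR-103 and miR-107 are encoded within genes of pantothenate kinases, the first enzymes of coenzyme A synthesis, and are known in liver and fat for lowering insulin sensitivity, with caveolin-1 among their targets.

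The mature sequences are printed because the counts of miR-103 and miR-107 rest on a single base. They are from RefSeq (GRCm38.p6), where all 7 members were matched, and capitals mark the seed.
miR-103-3p: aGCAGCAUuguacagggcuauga
miR-107-3p: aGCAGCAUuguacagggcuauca
miR-103-1-5p: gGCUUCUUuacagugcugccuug
miR-103-2-5p: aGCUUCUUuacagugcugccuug
miR-107-5p: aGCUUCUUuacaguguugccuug
miR-33-5p: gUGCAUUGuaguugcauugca
miR-33-3p: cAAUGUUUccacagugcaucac
The 3p arms of miR-103 and miR-107 share 22 of 23 bases and their seed, and differ only by G22C, counted from 1 at the 5′ end of miR-103-3p. A read ending before base 22 therefore carries nothing to separate them. Both miR-103 hairpins give the same 3p arm, so its reads cannot be assigned to a locus. The 5p arms do differ between loci, by G1A from miR-103-1-5p to miR-103-2-5p and by C16U from miR-103-2-5p to miR-107-5p. Of 889 miRNA names listed in every file, 747 had a RefSeq sequence, and 0 of these outside the 7 members carried any of the 4 member seeds.

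The hairpins are shown with both mature arms in capitals, since arm and locus decide what each row counts. Positions are RefSeq's on GRCm38.p6, and host genes are from GENCODE M21 on the same assembly; the labels name no build for the deposited counts.
Mir33: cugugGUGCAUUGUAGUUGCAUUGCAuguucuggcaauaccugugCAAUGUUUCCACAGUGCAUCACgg
Mir103-1: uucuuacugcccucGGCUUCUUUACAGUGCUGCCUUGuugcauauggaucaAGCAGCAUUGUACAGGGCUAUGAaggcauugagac
Mir103-2: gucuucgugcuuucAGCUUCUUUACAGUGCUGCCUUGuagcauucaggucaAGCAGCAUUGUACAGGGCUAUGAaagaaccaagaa
Mir107: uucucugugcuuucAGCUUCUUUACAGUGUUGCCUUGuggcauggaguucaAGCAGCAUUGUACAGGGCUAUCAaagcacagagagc
Mir33 lies at chr15:82198122-82198190 on the plus strand, in intron 16 of Srebf2. Mir103-1 lies at chr11:35782396-35782481 on the plus strand, in intron 5 of Pank3. Mir103-2 lies at chr2:131288052-131288137 on the plus strand, in intron 5 of Pank2. Mir107 lies at chr19:34820687-34820773 on the minus strand, in intron 5 of Pank1. Each hairpin is on the strand of its host gene and overlapped no exon of that gene's basic transcripts.

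The 5 tested members covered a wide range of levels. mmu-miR-103-3p (miR-103-3p below) was the most abundant, at 1854 ± 319 CPM (WT) and 1602 ± 196 CPM (PiZ; SD, n = 5 each). miR-107-3p followed at 1015 ± 176 CPM (WT) and 777 ± 241 CPM (PiZ). Both arms of miR-33 were far lower, with miR-33-5p at 10.7 ± 6.56 CPM (WT) and 16.5 ± 2.68 CPM (PiZ). miR-33-3p stood at 7.43 ± 4.23 CPM (WT) and 10.1 ± 3.83 CPM (PiZ). miR-107-5p was lowest, at 3.27 ± 1.41 CPM (WT) and 2.20 ± 0.976 CPM (PiZ). A read covers a whole mature miRNA, so these levels need no correction for length. miR-103-3p exceeded miR-107-3p in 10 of 10 mice, by 1.58 to 2.38 times, and miR-107-3p exceeded miR-33-5p in 10 of 10. miR-33-5p exceeded miR-33-3p in 9 of 10 mice and equalled it in the other. The WT means of these neighbours differed by less than the SD of either. That SD is the spread between mice and does not measure the difference of the arms within a mouse. miR-33-3p exceeded miR-107-5p in 9 of 10 mice, with equal reads in the other. For scale, miR-22-3p, the most abundant liver miRNA here, stood at 459919 CPM and miR-122-5p at 13013 CPM in WT liver. Among the 336 tested miRNAs, miR-103-3p held places 27 to 37 by level in single mice and miR-107-3p places 42 to 52.

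**Figure D1:**
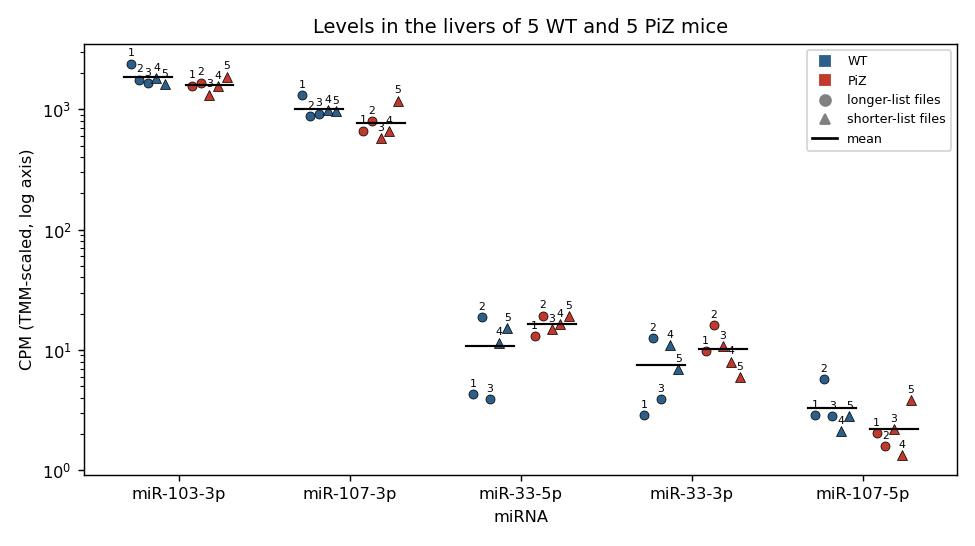
CPM of the 5 tested members on a log axis, 1 point per mouse with its mouse number, WT in blue and PiZ in red. Circles are mice of the longer feature list and triangles those of the shorter, and bars are group means. WT mice 1 and 3 lie apart from the other mice for miR-33-5p, and PiZ mouse 5 has the highest PiZ value of miR-107-3p.

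No member differed between genotypes past the threshold. Of the 5 tested, 0 had an adjusted p under 0.05 in edgeR's quasi-likelihood test and 0 had an unadjusted p under 0.05; DESeq2 and limma-voom also gave 0 at either level. Over all 336 miRNAs the same fit called 9.23%, 8.33% higher and 0.893% lower in PiZ liver, so among 5 members a count of 0 is near that background. At an unadjusted p under 0.05 the share over all tested miRNAs was 24.4%. Positive fold changes, higher in PiZ, were found for 2 of the 5 members (both arms of miR-33) and for 53% of all tested miRNAs. 0 of the 5 had groups that did not overlap, against 8.93% of all tested miRNAs. The labels give each mouse its own number, and the error is the spread between mice.

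miR-103-3p, the more abundant 3p arm, read 1579, 1671, 1328, 1564 and 1869 CPM in PiZ mice 1 to 5. In WT mice 1 to 5 it read 2404, 1772, 1661, 1823 and 1611 CPM. The groups overlapped, with 3 of 5 PiZ mice below every WT mouse and WT mouse 1 the highest of the 10. The log2 fold change was -0.19, SE 0.18, with a 95% interval of -0.59 to 0.21 (adjusted p = 0.580, edgeR).

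miR-107-3p, which differs from it by a base, read 665, 799.9, 578, 656 and 1184 CPM in PiZ mice 1 to 5. It read 1320 CPM in WT mouse 1 and 876, 923, 988 and 968 CPM in WT mice 2 to 5. PiZ mice 1 to 4 lay below every WT mouse, while PiZ mouse 5 lay above all WT mice but the first. The log2 fold change was -0.39, SE 0.24, with a 95% interval of -0.92 to 0.13 (adjusted p = 0.341, edgeR). Leaving out PiZ mouse 5 gave -0.58 (adjusted p = 0.0610), and leaving out WT mice 1 and 3 as well gave -0.51 (adjusted p = 0.0341). In that last fit, where mice were dropped that stood apart in earlier results of these data, 24.4% of all tested miRNAs were called, and 8.04% of all tested were called lower in PiZ. Leaving out only WT mice 1 and 3 gave -0.27 (adjusted p = 0.513).

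The sum of both 3p arms does not depend on how reads matching both were divided between them, provided each was counted once. Whether all were is not stated. It was 2379 ± 427 CPM in PiZ, from 1906 to 3053, and 2869 ± 487 CPM in WT liver, from 2579 to 3724 (SD, n = 5 each). The ranges overlapped. Counts that were not whole were present in 6 of 20 runs for miR-103-3p and in the same 6 runs for miR-107-3p, and in all 6 the sum of both was whole. The other 5 members had 0 fractional counts in any run.

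The split itself was compared as the share of miR-107-3p among reads of both 3p arms. It was 29.6%, 32.4%, 30.3%, 29.5% and 38.8% in PiZ mice 1 to 5. WT mice 1 to 5 had 35.4%, 33.1%, 35.7%, 35.2% and 37.5%. The 4 lowest shares of the 10 mice were those of PiZ mice 1 to 4, and the highest was that of PiZ mouse 5, whose 95% Wilson interval of 38.2% to 39.4% did not meet theirs. Group means were 32.1% ± 3.88 in PiZ mice, against 35.4% ± 1.59 in WT mice (SD, n = 5 each), and the means differed by -3.26 points, PiZ minus WT (p = 0.135 in a two-sided exact permutation test; adjusted over the 3 share tests, 0.405). Within the longer-list files the difference was -3.75 points (exact p = 0.200, the smallest this split allows) and within the shorter-list files -3.47 points (exact p = 0.600). Without PiZ mouse 5 it was -4.92 points (exact p = 0.0159, the smallest that 4 against 5 mice can give). That p is not adjusted over the 3 share tests, and it rests on leaving out 1 mouse, the one with the highest share.

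**Figure D2:**
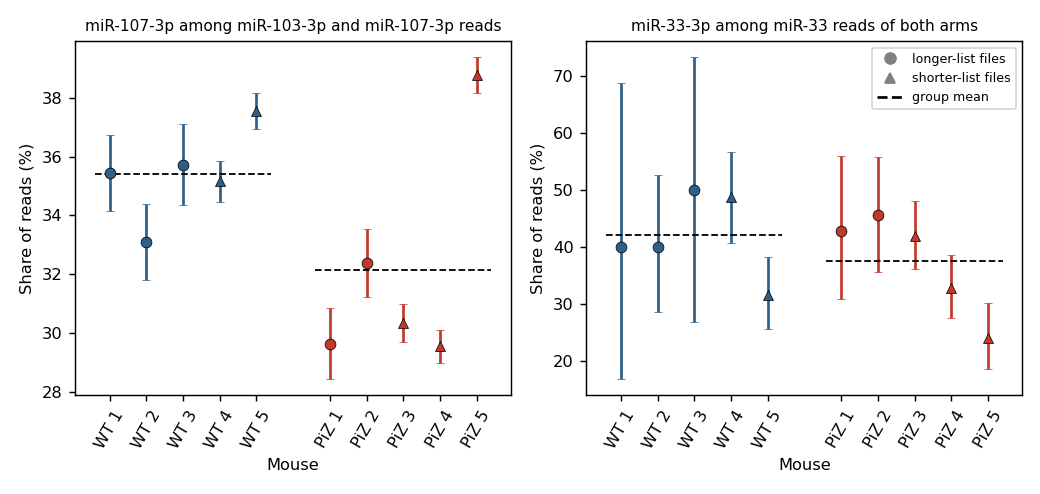
Share of reads in percent for each mouse, with 95% Wilson intervals for counting error, WT in blue and PiZ in red, and group means dashed. On the left, the miR-107-3p share of PiZ mice 1 to 4 lies between 29.5% and 32.4%, below every WT mouse, and that of PiZ mouse 5 is 38.8%. On the right, the miR-33-3p share has wide intervals in WT mice 1 and 3, which have few reads.

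PiZ mouse 5 also lay outside the range of PiZ mice 1 to 4 in some cell type marker sums, but not in the immune and erythroid sums. The hepatocyte sum was 113947 to 158183 CPM in PiZ mice 1 to 4 and 238057 CPM in PiZ mouse 5, above every WT mouse. Of its 2 members, miR-122-5p alone did not part this way. It was 10577 CPM in PiZ mouse 5, within the 6807 to 11138 CPM of PiZ mice 1 to 4 and below every WT mouse. The summed biliary list, 5 of 5 members tested, was 291 to 315 CPM in PiZ mice 1 to 4, 178 CPM in PiZ mouse 5 and 189 to 280 CPM in WT mice. Its members did not all follow the sum, and 0 had an adjusted p under 0.05 in edgeR. All 5 PiZ mice, mouse 5 included, lay above every WT mouse for miR-200a-3p and miR-141-3p. For miR-429-3p and miR-200c-3p, 1 PiZ mouse lay below every WT mouse and 1 above. Groups without overlap made up 8.93% of all tested miRNAs. The pancreas list, 4 of 4 tested, was 24.1 to 80.9 CPM in PiZ mice 1 to 4, 12.2 CPM in PiZ mouse 5 and 5.74 to 17.2 CPM in WT mice. Its members differed. miR-375-3p stood at 10.2 CPM in both groups (log2 fold change -0.077, edgeR adjusted p = 0.932). miR-216b-5p (8.02, adjusted p = 0.00303) and miR-217-5p (6.15, adjusted p = 0.0297) passed, each from a WT mean of 0.0303 CPM. That is 2 of 4 members, beside 9.23% of all tested miRNAs. miR-216a-5p did not pass (4.12, adjusted p = 0.0579). The immune list was above every WT mouse in PiZ mice 1, 3, 4 and 5 (2536 to 3035 CPM, against 912 to 2171 CPM in WT mice). The erythroid sum was 311 to 1751 CPM in PiZ and 259 to 1079 CPM in WT mice. Endothelial sums were 26152 to 28800 CPM in PiZ mice 1 to 4 and 23357 CPM in PiZ mouse 5 (7897 to 41279 CPM in WT). Mesenchymal sums were 13277 to 14783 CPM in PiZ mice 1 to 4 and 9875 CPM in PiZ mouse 5 (5771 to 16858 CPM in WT). PiZ mouse 5 was thus the lowest PiZ mouse in both, though all PiZ mice lay within the WT range. No marker was at 0 in all mice. The part of these lists in the miR-103 and miR-107 values was not tested, and in whole liver fewer cells of a type and less RNA per cell cannot be told apart.

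miR-33-5p, the arm known for repressing Abca1, read 13.1, 19.3, 14.8, 16.3 and 19.0 CPM in PiZ mice 1 to 5. In WT mice 1 to 5 it read 4.29, 18.8, 3.92, 11.5 and 15.1 CPM. WT mice 1 and 3 were the lowest of the 10. WT mouse 4 also lay below every PiZ mouse, and WT mice 2 and 5 lay within the PiZ range. The log2 fold change was 0.56, SE 0.40, with a 95% interval of -0.32 to 1.43 (adjusted p = 0.429, edgeR). Only 6 and 7 reads stood behind the values of WT mice 1 and 3, with exact 95% Poisson intervals of 1.57 to 9.34 CPM and 1.58 to 8.08 CPM, which cover counting error only. Leaving out these 2 mice gave a log2 fold change of 0.14 (adjusted p = 0.748). Those libraries stood apart in other miRNAs too: miR-21a-5p was at 6129 and 9172 CPM there, at 32024 to 35950 CPM in WT mice 2, 4 and 5, and at 18645 to 34623 CPM in PiZ mice. They were also lowest of the 10 in 3 marker sums. The endothelial sum was 7897 and 12653 CPM there, while WT mice 2, 4 and 5 had 32304 to 41279 CPM, and the mesenchymal sum 5771 and 8335 CPM, against 11467 to 16858 CPM. The hepatocyte sum was 55065 and 75750 CPM, against 198679 to 222763 CPM. Of its 2 members, miR-122-5p alone was not low in WT mice 1 and 3. It was 13597 and 11954 CPM there, within the 11669 to 14245 CPM of WT mice 2, 4 and 5. The part of these differences in the miR-33 values was not tested.

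miR-33-3p, the other arm of the hairpin, read 9.82, 16.2, 10.7, 7.99 and 5.98 CPM in PiZ mice 1 to 5. WT mice 1 to 5 had 2.86, 12.5, 3.92, 10.9 and 6.95 CPM, again lowest in WT mice 1 and 3. The groups overlapped, and the log2 fold change was 0.39, SE 0.42 (adjusted p = 0.617, edgeR). The shorter-list files alone gave -0.11, and leaving out WT mice 1 and 3 gave -0.058, so its direction changed with the libraries used. Of the reads of both arms, miR-33-3p took 37.4% ± 8.94 in PiZ mice, against 42.0% ± 7.51 in WT mice (SD, n = 5 each), which puts the PiZ mean at -4.61 points from the WT mean (p = 0.397, exact two-sided permutation; adjusted over the 3 share tests, 0.563). PiZ mouse 5 had the lowest share, 23.9%, and WT mouse 3 the highest, 50%, on 14 reads. Within the longer-list files the difference was 0.873 points (exact p = 1) and within the shorter-list files -7.18 points (exact p = 0.600).

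The 5p arms of miR-103 and miR-107 were rare, and not equally so. miR-103-1-5p had 1 read in all, in PiZ mouse 5, and miR-103-2-5p had 3, in PiZ mice 3 and 5. Neither had a read in WT liver, where 0 of 21930655 reads allows up to 0.137 reads in 1000000, counting error only. miR-107-5p had 138 reads and was present in 10 of 10 mice, although its 3p arm was less abundant than that of miR-103. The 5p arm took 0.291% of the reads of miR-107 (exact 95% binomial interval 0.244% to 0.343%, over all mice together) and 0.00439% of those of miR-103 (0.00119% to 0.0112%). In single mice the miR-107 value lay between 0.197% and 0.651%, and the highest miR-103 value was 0.0151%, so the ranges did not meet. For miR-33, by contrast, the 5p arm took 63.4% (60.7% to 66.0%). These intervals pool the mice and leave out the spread between them.

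miR-107-5p read 2.05, 1.58, 2.20, 1.33 and 3.83 CPM in PiZ mice 1 to 5 and 2.86, 5.74, 2.80, 2.12 and 2.82 CPM in WT mice 1 to 5. WT mouse 2 was highest and the groups overlapped, as 3 of 5 PiZ mice lay below every WT mouse. The log2 fold change was -0.44, SE 0.42 (adjusted p = 0.571, edgeR). All 5p rows of both genes together took 0.0947% ± 0.0340 of their reads in PiZ mice, against 0.117% ± 0.0578 in WT mice (SD, n = 5 each; difference -0.0224 points, exact two-sided permutation p = 0.563, adjusted 0.563). Within the longer-list files the difference was -0.0563 points (exact p = 0.400) and within the shorter-list files 0.0139 points (exact p = 0.600).

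**Figure D3:**
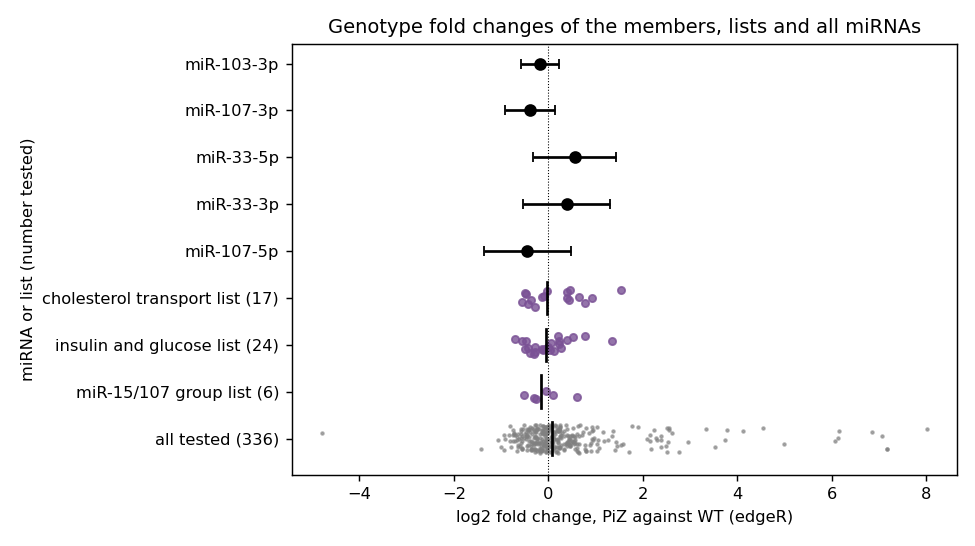
log2 fold changes of PiZ against WT liver from edgeR. The upper rows are the 5 tested members with 95% intervals, all of which include 0; the lower rows show each tested miRNA of 3 lists and of all 336, with medians as bars.

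Whether the genotype effect of a member differs between the file sets was tested as an interaction. The differences of log2 fold change, shorter minus longer list, were 0.15 (SE 0.37) for miR-103-3p, 0.23 (SE 0.49) for miR-107-3p, -0.50 (SE 0.83) for miR-33-5p, -1.10 (SE 0.82) for miR-33-3p and 1.05 (SE 0.84) for miR-107-5p. In edgeR 0 of 5 members passed and 0 had an unadjusted p under 0.05, while 0% of all tested miRNAs passed and 3.87% had an unadjusted p under 0.05. These SEs are as large as or larger than most of the genotype fold changes themselves.

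miR-103-3p varied little between mice. Its SD of log2 CPM over the 10 mice was 0.22, the 9th lowest of 336 tested miRNAs, whose median was 0.55. Among the 56 miRNAs of at least 500 CPM on average, where counting error is small, it ranked 4th lowest. Its place among all 336 was 9 with RLE size factors, 17 with library totals and 26 with upper quartile scaling. miR-107-3p, with an SD of 0.38, ranked 82nd of 336 and 23rd of the 56. The SDs of miR-33-5p and miR-33-3p were 0.80 and 0.72, places 244 and 232. Over the 8 mice other than WT 1 and 3 (an alternative chosen after seeing the data) they were 0.26 and 0.44, places 58 and 206, beside a median of 0.39, so the SD of miR-33-5p above the median rests on those libraries. Over the same 8 mice miR-103-3p had an SD of 0.16, place 10, and miR-107-3p 0.35, place 138.

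**Figure D4:**
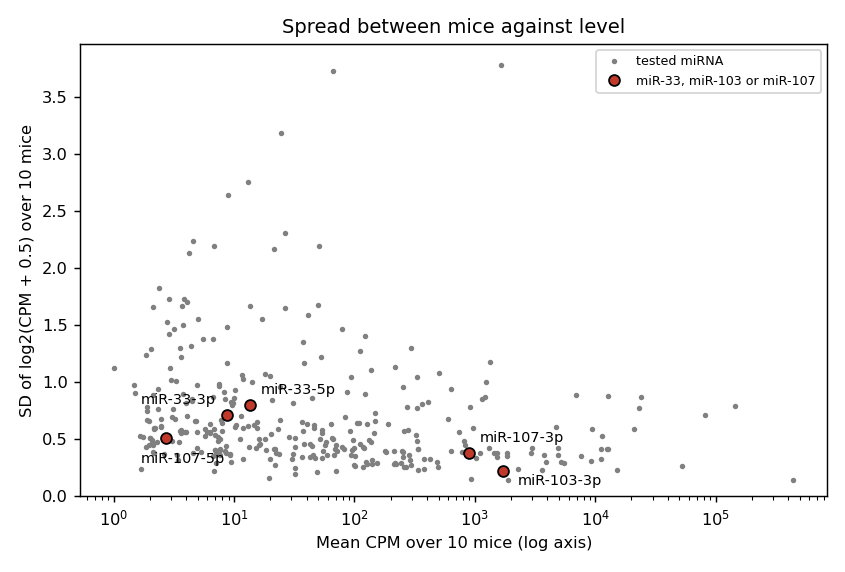
SD of log2(CPM + 0.5) over the 10 mice against mean CPM on a log axis, 1 point per tested miRNA, members in red. miR-103-3p lies near the lower edge at an SD of 0.22, and both arms of miR-33 lie above the median of 0.55, for miR-33-5p only with WT mice 1 and 3 included.

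The miRNAs most like each member over the 10 mice were found by Pearson r of log2 CPM, as the highest of 335 values, so the values describe these libraries and share their depth and scaling. For miR-107-3p they were miR-30c-2-3p (r = 0.96), let-7k (0.95), miR-378a-3p (0.93), miR-378d (0.93) and miR-31-5p (0.89). Their Spearman rho ran from 0.92 to 0.99, and without PiZ mouse 3 and WT mouse 1, the 2 mice farthest from the median, r ran from 0.78 to 0.96. For miR-103-3p they were let-7k (0.93), miR-345-3p (0.90), miR-378b (0.89), miR-378d (0.89) and miR-378a-3p (0.89), with rho of 0.78 to 0.94. Without the same 2 mice these r were 0.62 to 0.80. miR-103-3p and miR-107-3p had r = 0.88 and rho = 0.89 with each other, and r = 0.80 without PiZ mouse 3 and WT mouse 1. How reads matching both were assigned is not stated, and its part in this likeness was not tested.

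For miR-33-5p the most alike were miR-340-5p (r = 0.97), the joined row of let-7a-1-3p and let-7c-2-3p (0.95), miR-98-3p (0.94), miR-101a-3p (0.94) and miR-21b (0.93). Without WT mice 1 and 3, r was 0.60 for miR-340-5p and 0.21 to 0.28 for the other 4, so these relations rest on those 2 libraries. For miR-33-3p they were miR-29c-3p (0.92), miR-29a-5p (0.90), miR-30b-5p (0.88), miR-143-3p (0.87) and miR-126a-3p (0.86), and 0.54 to 0.80 without the same libraries. Both arms of miR-33 had r = 0.80 and rho = 0.52 with each other, and r = 0.054 without WT mice 1 and 3, so this relation too rests on those libraries. For miR-107-5p, a row of few reads, they were miR-99a-3p (0.84), miR-1843a-5p (0.80), miR-23b-3p (0.70), miR-99a-5p (0.68) and miR-7219-3p (0.66).

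Other miRNAs known for cholesterol transport were taken as a list of 20, of which 17 were tested. 0 were called higher and 0 lower in PiZ, against 9.23% called of all tested miRNAs. An unadjusted p under 0.05 was found for 8 of the 17, against 24.4% of all. All 5 PiZ mice lay above every WT mouse for miR-148a-3p, miR-27a-3p and miR-223-3p. All 5 lay below for miR-26a-5p and miR-122-5p (the latter 9512 ± 1726 CPM in PiZ, 13013 ± 1133 CPM in WT, edgeR adjusted p = 0.119). Over all tested miRNAs 8.93% had groups without overlap, and the list was not tested as a set. Fold changes were positive for 8 and negative for 9, with 53% positive over all tested. The median was -0.021, beside 0.069 over all tested miRNAs. The most abundant were miR-148a-3p, known to repress the LDL receptor and Abca1 (106040 ± 31239 CPM in PiZ and 55806 ± 19402 CPM in WT; log2 fold change 0.92, adjusted p = 0.0947), and miR-26a-5p (44802 ± 5712 and 60560 ± 1553 CPM; -0.44, adjusted p = 0.116). miR-27b-3p, a lipid-responsive liver miRNA, stood at 14798 ± 3678 CPM (PiZ) and 15663 ± 1025 CPM (WT), a log2 difference of -0.13 (edgeR adjusted p = 0.743). miR-223-3p, named after its values were seen because it had the smallest adjusted p of the list, stood at 26.1 ± 1.76 CPM among PiZ mice and 14.6 ± 4.73 CPM among WT mice (0.77, adjusted p = 0.0632); it is also a myeloid miRNA of the immune list.

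The insulin and glucose list had 24 named and 24 tested members. 0 were called higher and 0 lower in PiZ, beside 9.23% called over all tested miRNAs. An unadjusted p under 0.05 was found for 4 of the 24, beside 24.4% of all, and fold changes were positive for 11 and negative for 13, beside 53% positive. The median was -0.045. Its most abundant members were miR-26a-5p, given above, let-7f-5p, of a family known to repress the insulin receptor (log2 fold change 0.22, adjusted p = 0.643), and miR-143-3p, known to impair insulin-stimulated AKT activation in liver (0.27, adjusted p = 0.605, edgeR).

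miR-103 and miR-107 are also grouped with miR-15, miR-16 and relatives, which carry AGCAGC near the 5′ end. The hexamer starts at base 1 of miR-103-3p and miR-107-3p and at base 2 of the relatives, so the seeds differ. miR-16-5p is printed with its seed in capitals to show the shift by 1 base.
miR-103-3p: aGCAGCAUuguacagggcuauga
miR-16-5p: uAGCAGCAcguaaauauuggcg
Of 7 relatives named, 6 were tested, and 0 were called higher and 0 lower in PiZ (9.23% of all tested were called). Of the 6, 1 had an unadjusted p under 0.05 (24.4% of all) and 2 fold changes were positive (53% of all). The median was -0.15. In edgeR the log2 fold changes were -0.31 for miR-16-5p (adjusted p = 0.515), 0.60 for miR-322-5p (adjusted p = 0.186) and 0.088 for miR-15b-5p (adjusted p = 0.922). All 5 PiZ mice lay above every WT mouse for miR-322-5p, and the groups of the other tested relatives overlapped (8.93% of all tested had no overlap). Across scalings the median log2 fold change of all tested miRNAs ran from -0.095 with upper quartile to 0.078 with library totals, against 0.069 here. Under upper quartile scaling, the fold changes of miR-103-3p and miR-107-3p were -0.35 and -0.55 and those of miR-33-5p and miR-33-3p 0.39 and 0.22, the same signs as above.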

How the data were processed

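RNA of flash-frozen liver was extracted with miRNeasy and turned into TruSeq small RNA libraries, each sequenced in 2 technical runs, per the labels' protocols. Files deposited hold estimated counts per mature miRNA for each run, not normalized by the authors as far as the values show; of tools, the submitters' processing notes name CASAVA. No aligner, annotation, build or rule for shared reads is given in the sources used here, so how far miR-103-3p and miR-107-3p counts share reads is unknown.

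The 2 runs of a mouse were summed and rounded. Of 42 run pairs of members with 10 or more reads, 2 differed at an exact binomial p under 0.05. Rows common to all files (99.999% of reads or more) were filtered (filterByExpr, 336 kept), TMM-scaled and tested in edgeR 4.0.16 (quasi-likelihood, file set and genotype; Benjamini-Hochberg, threshold 0.05); SE is the fold change over the square root of F. CPM use the scaled library sizes; 1 read is worth 0.0928 to 0.765 reads in 1000000. Shares were tested by exact permutation over mice (scipy 1.17.1). Alternatives used DESeq2 1.42.0 and limma 3.58.1 in R 4.3.3, other scalings, filters, runs, file sets and left-out mice, with the tested miRNAs held except without a filter. Members, lists and tests were chosen with earlier results of these data known. The miRNAs named were all members, the 5 most alike each tested member of 10 or more reads on average, the 3 most abundant of each list, any list member past 0.05 (there were 0), and miR-21a-5p, miR-22-3p and miR-122-5p. Members of the cholesterol list whose groups did not overlap, and the single biliary and pancreas members, were named after their values were seen. miR-497a-5p was matched to the row miR-497-5p.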

Additional observations from a re-analysis of the deposited data

Results flagged for a closer look

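Of 16 groups of 5 mice examined, for the 5 tested members and the 3 shares, 2 had an end mouse whose gap to the next exceeded 0.71 of the group's range, Dixon's 95% limit; chance gives about 1 in 20. Both are WT mouse 2. Its miR-107-5p, 5.74 CPM on 11 reads, was the highest WT value, with a gap of 0.714 of the range on the log2 scale. Its share of 5p reads among all miR-103 and miR-107 reads, 0.216% (95% Wilson interval 0.121% to 0.387%), had a gap of 0.760. The second rests on the same 11 reads, so the 2 are not independent.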

How the results depend on the processing

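The log2 fold changes of miR-103-3p, miR-107-3p, miR-107-5p and miR-33-5p kept their direction under all 24 alternatives run. Without WT mice 1 and 3 and PiZ mouse 5, miR-107-3p passed (-0.51, adjusted p = 0.0341) and the count of members past 0.05 was 1. miR-33-3p turned to -0.11 in the shorter-list files alone and to -0.058 without WT mice 1 and 3. With single mice left out, miR-103-3p ranged from -0.28 to -0.098, miR-107-3p from -0.58 to -0.29, miR-107-5p from -0.73 to -0.28, miR-33-3p from 0.13 to 0.66 and miR-33-5p from 0.38 to 0.91. The smallest adjusted p of these was 0.0610, for miR-107-3p without PiZ mouse 5. The miR-107-3p share difference ranged from -4.92 to -2.61 points. Without PiZ mouse 5, the mouse with the highest share, its unadjusted exact permutation p was 0.0159, the smallest that 4 against 5 mice can give. The miR-33-3p share difference ranged from -7.23 to -1.23 points and was 0.873 in the longer-list files alone. The 5p share difference ranged from -0.0329 to 0.00232 points, turned positive without WT mouse 2, and was 0.0139 in the shorter-list files alone. The interaction changed sign without a filter for miR-103-3p (-0.078) and miR-107-3p (-0.018). With single mice left out it ranged from -0.035 to 0.26 for miR-103-3p, -0.16 to 0.42 for miR-107-3p, 0.58 to 1.35 for miR-107-5p, -2.02 to -0.70 for miR-33-3p and -1.66 to -0.13 for miR-33-5p. The cause of these changes was not tested. Each miR-33 arm had 4 to 7 reads in WT mice 1 and 3, so counting error is wide there. No paired analysis was possible because the replicate numbers of the labels name runs of 1 library, and PiZ and WT mice are different animals.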
